A study of Mus musculus with 12 samples.

Results

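The genes described here are 35 listed genes of glucose transport, glycolysis, lactate and pyruvate handling and the pentose phosphate pathway, followed across conventional dendritic cells of the mouse spleen. They were listed by name, with earlier results of these data known. Of the 35, 31 had a probe set matched to their symbol alone on the array, and 30 were bright enough to be tested among 14953 genes. Fbp1, the gluconeogenic fructose bisphosphatase, had a value but lay among the dimmest genes, with intensities of 10.5 to 11.5 in cDC1 and 10.5 to 11.9 in cDC2. Gpi1, Eno1 and G6pdx had no probe set under these symbols in the probe table, and Gapdh had 25 probe sets that all carried several symbols, so those 4 genes were not analysed here.

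RNA was measured on 12 GeneChip arrays, 2 labelled as biological replicates for each of 6 groups: cDC1 and cDC2, described as mature cells, sorted from spleens of wild-type (WT) mice, Flt3 KO mice and Flt3L KO mice. The Flt3 gene encodes a growth factor receptor of the tyrosine kinase class, on which dendritic cells depend for their numbers, and Flt3L is the ligand that binds it. All mice were at steady state, all spleens were digested with Collagenase B and DNAse 1, and the labels give no strain, age, or number of mice behind an array. The p-values therefore measure the spread between these arrays, which may be partly technical.

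Glucose enters a cell through facilitative carriers of the GLUT family, is trapped by hexokinases, and is split by glycolysis into pyruvate, with net gain of ATP and NADH. Pyruvate is then reduced to lactate, which leaves through monocarboxylate carriers, or enters mitochondria through the pyruvate dehydrogenase complex. The pentose phosphate pathway branches off glucose 6-phosphate and supplies NADPH and ribose 5-phosphate, and in dendritic cells glucose use is known to rise when the cells are activated.

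Array medians lay between 59.0 and 63.0 intensity units, and replicate 1 of WT cDC1 stood apart: its lower quartile was 25.7, against 23.3 to 24.3 on the other 11 arrays. The log2 difference between replicates had an SD of 0.21 over genes in WT cDC1 and of 0.13 to 0.15 in the other groups; over the 30 tested members the SDs were 0.12 to 0.16 in all 6 groups. Flt3 fell in Flt3 KO from a mean intensity of 2299 to 364 in cDC1 and from 1779 to 361 in cDC2, whereas Flt3l was 1.30-fold lower in Flt3L KO cDC2 and not called in Flt3L KO cDC1. The sources used here do not say which part of either gene is deleted, and a probe outside that part checks nothing. All 8 cDC1 markers (such as Xcr1 and Clec9a) were called higher and all 8 cDC2 markers (such as Sirpa and Irf4) lower in cDC1 than in cDC2 in each genotype, as the sort labels say.

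Which steps of glucose use differ between the cell types was read from cDC1 against cDC2 within each genotype. Carriers for glucose and the lactate exporter Slc16a3 were several-fold lower in cDC1, whereas most enzymes of the glycolytic chain, the lactate carrier Slc16a1 and most pentose phosphate enzymes were higher. In WT, 22 of the 30 members were called (limma, adjusted p under 0.05), 14 higher and 8 lower in cDC1, where 39.4% of all tested genes were called, 21% higher and 18.4% lower. In Flt3 KO, 22 members were called, 14 higher and 8 lower, against a background of 35.5% (19.1% and 16.4%). In Flt3L KO, 25 were called, 17 higher and 8 lower, against 34.8% (18.9% and 15.9%). The median log2 difference over the members was 0.25 in WT, 0.20 in Flt3 KO and 0.35 in Flt3L KO, beside 0.07, 0.00 and 0.01 over all tested genes.

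The same 21 members were called in the same direction in all 3 genotypes: 13 higher in cDC1 (Hk3, Pfkp, Pfkfb3, Aldoa, Aldoc, Tpi1, Pgk1, Pgam1, Ldha, Slc16a1, Pgd, Pgls and Taldo1) and 8 lower (Slc2a1, Slc2a3, Slc2a6, Pfkfb4, Ldhb, Slc16a3, Pdk3 and Pdha1). These were also the members whose 6 cDC1 arrays lay wholly above or wholly below the 6 cDC2 arrays, which 32.8% of all tested genes did (17.6% above and 15.1% below). In the other 9 members (Hk1, Hk2, Pfkl, Pfkm, Eno2, Pkm, Pdk1, Tkt and Rpia) the arrays of the cell types overlapped. No member was called in opposite directions in any pair of genotypes. The share of all tested genes called in the same direction in all 3 genotypes was not counted. Averaged over genotypes, 27 members were called, 19 higher and 8 lower in cDC1, against a background of 51.6% (28.1% and 23.5%). Fewer cells of a type in the sort and less RNA per cell cannot be told apart in such bulk samples.

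**Figure D1:**
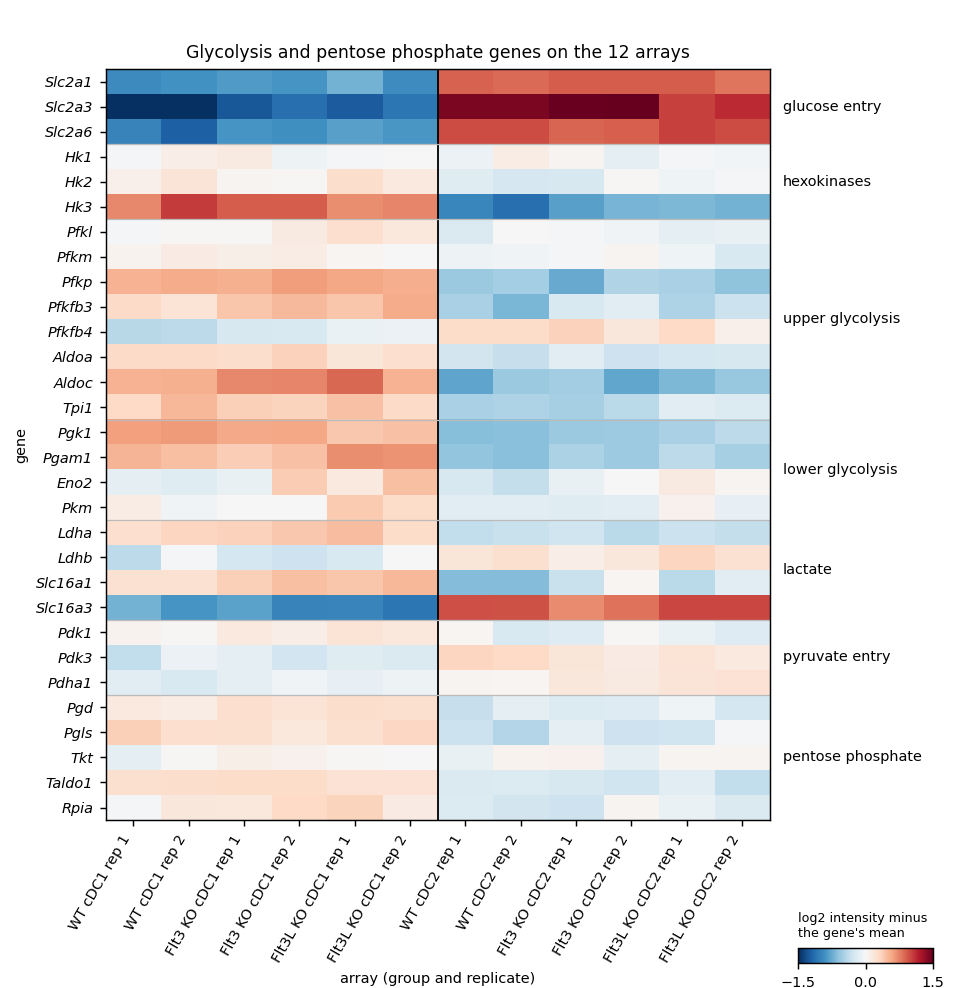
Log2 intensity minus the gene's own mean over the 12 arrays, for the 30 tested members (rows, grouped by role) and the 12 arrays (columns, cDC1 left and cDC2 right of the line). The colour scale saturates at 1.5 log2 units in either direction. The 3 glucose carriers and Slc16a3 are blue in cDC1 and red in cDC2, and most enzymes between them run the other way in all 3 genotypes.

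Promoter sequence is shown for 4 members that differ in opposite directions between the cell types and hold the same short motif before a start site. Ldha and Pgk1 were higher in cDC1, and Slc2a1 and Slc16a3 were lower in cDC1. All 4 were chosen after their values were seen. The motif is ACGTG, the core letters of the hypoxia response element, searched on both strands (CACGT is its other strand) in the 250 bases before the start. Matches are in capitals, and CACGTG, an E-box, holds a match on each strand, and these overlap. Sequences are from RefSeq, build GRCm38.p6, 5′ to 3′ on the gene's strand, which is the plus strand for all 4: chr7:46845554-46845803 for Ldha, chrX:106186850-106187099 for Pgk1, chr4:119108495-119108744 for Slc2a1 and chr11:120948817-120949066 for Slc16a3.
Ldha: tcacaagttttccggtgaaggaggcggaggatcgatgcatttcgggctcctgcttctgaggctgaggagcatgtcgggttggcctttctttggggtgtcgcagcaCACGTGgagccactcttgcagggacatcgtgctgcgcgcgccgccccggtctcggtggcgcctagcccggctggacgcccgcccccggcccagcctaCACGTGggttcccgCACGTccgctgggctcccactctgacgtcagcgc
Pgk1: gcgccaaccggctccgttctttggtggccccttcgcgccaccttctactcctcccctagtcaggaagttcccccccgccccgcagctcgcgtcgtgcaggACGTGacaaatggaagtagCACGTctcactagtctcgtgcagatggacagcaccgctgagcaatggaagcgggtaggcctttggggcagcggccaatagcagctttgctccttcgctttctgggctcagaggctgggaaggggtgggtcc
Slc2a1: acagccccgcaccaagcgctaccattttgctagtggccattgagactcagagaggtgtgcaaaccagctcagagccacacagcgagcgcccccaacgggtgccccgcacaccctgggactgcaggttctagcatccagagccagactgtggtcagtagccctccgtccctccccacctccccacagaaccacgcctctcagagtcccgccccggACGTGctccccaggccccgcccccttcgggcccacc
Slc16a3: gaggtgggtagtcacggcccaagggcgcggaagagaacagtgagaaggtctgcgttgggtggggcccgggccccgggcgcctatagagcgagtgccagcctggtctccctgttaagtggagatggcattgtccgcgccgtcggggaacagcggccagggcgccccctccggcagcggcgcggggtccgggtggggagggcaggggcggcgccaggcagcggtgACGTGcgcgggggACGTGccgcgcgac

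The printed Ldha window held 5 matches, with CACGTG at both of its paired sites. Another Ldha window, before a different start and not printed, held 0. The Pgk1 and Slc16a3 windows held 2 each and the Slc2a1 window 1, at 36 bases before the start. RefSeq's table gave 48 such windows for 34 of the 35 members. ACGTG was found in 13 of 30 windows (43.3%) of the members called higher in cDC1 on average over genotypes, in 3 of 7 windows (42.9%) of those called lower, and in 0 of 4 windows of members that were tested and not called. Of all 14823 windows of genes tested on the arrays, 20.2% held it, and 16.6% of all 32851 windows in the table did. Windows of a gene can overlap, as in Aldoa, so a site can count more than once. By gene, ACGTG was in 10 of 19 members called higher, 3 of 7 called lower and 0 of 3 not called. Of the 11808 tested genes with a window, 23.4% held it. ACGTG thus occurred in both directions of change. Another form of the same core, GCGTG, was searched too on both strands, where it reads CACGC on the opposite one, and was in 50% of the windows of the members called higher, 85.7% of those called lower, 50% of those not called and 40.7% of all windows of tested genes. A match is a stretch of letters, not a binding site.

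Slc2a3 was the member furthest apart between the cell types in each genotype, and the other glucose carriers also differed by over 1 log2 unit. Slc2a3, the high-affinity carrier GLUT3, gave 168 and 170.2 in WT, 215 and 238 in Flt3 KO and 220.0 and 247 in Flt3L KO cDC1. The cDC2 arrays gave 1388 and 1385 in WT, 1457 and 1511 in Flt3 KO and 1058 and 1137 in Flt3L KO. Every cDC1 array was several-fold below every cDC2 array, and within cDC1 both WT arrays were below the 4 knockout arrays. The log2 difference, cDC1 minus cDC2, was -3.03 ± 0.08 (SE) in WT (an 8.19-fold lower level, adjusted p = 2.39e-11), -2.71 ± 0.08 in Flt3 KO and -2.24 ± 0.08 in Flt3L KO. Slc2a1, the broadly expressed carrier GLUT1, gave 363 and 373 in WT, 388 and 379 in Flt3 KO and 428 and 365 in Flt3L KO cDC1. Its cDC2 values were 1297 and 1259 in WT, 1314 and 1317 in Flt3 KO and 1314 and 1224 in Flt3L KO. Its cDC1 arrays formed a narrow band far below the cDC2 arrays, with log2 differences of -1.80 ± 0.09 in WT (3.47-fold, adjusted p = 2.66e-09), -1.78 in Flt3 KO and -1.68 in Flt3L KO. Slc2a6, which encodes GLUT6, a carrier found on lysosomes, gave 170.1 and 145 in WT, 183 and 179 in Flt3 KO and 193 and 185 in Flt3L KO cDC1. Across cDC2 it gave 672 and 669 in WT, 623 and 632 in Flt3 KO and 690.5 and 673 in Flt3L KO. The cell types were again apart on every array, with cDC1 minus cDC2 at -2.09 ± 0.08 in WT (4.27-fold, adjusted p = 5.46e-10), -1.79 in Flt3 KO and -1.85 in Flt3L KO on the log2 scale. All 3 carriers were thus lower in cDC1 in each genotype.

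Among hexokinases, which phosphorylate glucose, Hk3 separated the cell types on every array. Hk3, the isoform typical of myeloid cells, gave 211 and 264 in WT, 240.1 and 239 in Flt3 KO and 207 and 213 in Flt3L KO cDC1. Values in cDC2 were 64.7 and 58.7 in WT, 72.9 and 78.9 in Flt3 KO and 80.1 and 78.1 in Flt3L KO. The lowest cDC1 array was above the highest cDC2 array by far, and the log2 difference was 1.94 ± 0.10 in WT (3.83-fold higher in cDC1, adjusted p = 6.72e-09), 1.66 ± 0.10 in Flt3 KO and 1.41 ± 0.10 in Flt3L KO. Hk2, the inducible isoform, ranged from 185 to 220.1 in cDC1 and 154 to 185 in cDC2, and was called higher in cDC1 in WT alone (0.35 ± 0.09, adjusted p = 0.00915); whether that differs between genotypes was not called in either difference of knockout effects (adjusted p = 0.627 and 0.735). Hk1, the widely expressed isoform, ranged from 3481 to 4016 in cDC1 and 3348 to 3971 in cDC2 and was called in no genotype. That value depends on the probe set: the brightest one of Hk1 lists no RefSeq transcript, while a dimmer one that lists RefSeq transcripts was lower in cDC1, with log2 differences of -0.69 ± 0.09 in WT (adjusted p = 3.46e-05), -0.36 in Flt3 KO and -0.25 in Flt3L KO, an alternative added after the data were seen. On that probe set too the arrays of the cell types did not overlap, with intensities from 81.4 to 122 in cDC1 and from 134 to 154 in cDC2.

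In the upper part of glycolysis, from fructose 6-phosphate to triose phosphates, 7 of 8 tested members were called higher and 1 lower in cDC1 on average over genotypes. Of all tested genes, 28.1% were called higher and 23.5% lower in that comparison. Pfkp, the platelet-type subunit of phosphofructokinase, the committed step of glycolysis, gave 3062 and 3142 in WT, 3102 and 3291 in Flt3 KO and 3192 and 3127 in Flt3L KO cDC1. In cDC2 the values were 1457 and 1496 in WT, 1263 and 1565 in Flt3 KO and 1527 and 1413 in Flt3L KO. All cDC1 arrays were far above all cDC2 arrays, with log2 differences of 1.07 ± 0.10 in WT (adjusted p = 1.38e-06), 1.18 in Flt3 KO and 1.10 in Flt3L KO. Pfkl and Pfkm, the liver-type and muscle-type subunits of the same enzyme, overlapped between the cell types, at 115 to 139 in cDC1 and 101 to 116 in cDC2 for Pfkl and at 61.0 to 66.5 in cDC1 and 52.1 to 62.6 in cDC2 for Pfkm. Their log2 differences in WT were 0.11 ± 0.09 and 0.15 ± 0.08, and neither was called there (adjusted p = 0.354 and 0.147). Pfkl was called higher in cDC1 in Flt3L KO alone (0.33 ± 0.09, adjusted p = 0.00878). Whether that differs between genotypes was not called in the difference of Flt3L KO effects.

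Pfkfb3 and Pfkfb4, bifunctional enzymes that set the level of fructose 2,6-bisphosphate, the activator of phosphofructokinase, went opposite ways. Pfkfb3, whose kinase activity dominates, gave 812 and 767 in WT, 889 and 935 in Flt3 KO and 891 and 979 in Flt3L KO cDC1. The cDC2 arrays gave 477 and 416 in WT, 571 and 595 in Flt3 KO and 485 and 535 in Flt3L KO. Its cDC1 arrays were all above the cDC2 arrays, by 0.83 ± 0.09 in WT on the log2 scale (adjusted p = 9.26e-06), 0.65 in Flt3 KO and 0.87 in Flt3L KO. Pfkfb4 gave 39.2 and 39.9 in WT, 44.3 and 44.6 in Flt3 KO and 48.8 and 49.0 in Flt3L KO cDC1. Its cDC2 values were 63.2 and 63.5 in WT, 66.6 and 59.0 in Flt3 KO and 64.5 and 55.2 in Flt3L KO. Its cDC1 arrays were all below the cDC2 arrays, with log2 differences of -0.68 ± 0.09 in WT (adjusted p = 4.16e-05), -0.50 in Flt3 KO and -0.29 in Flt3L KO, where both Flt3L KO cDC1 arrays were the highest of the 6 cDC1 arrays.

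Aldolases cleave fructose 1,6-bisphosphate, and both tested isoforms were higher in cDC1. Aldoc gave 121 and 123 in WT, 139.7 and 141 in Flt3 KO and 154 and 122 in Flt3L KO cDC1. Across cDC2 it gave 48.9 and 57.5 in WT, 59.1 and 49.3 in Flt3 KO and 52.9 and 57.3 in Flt3L KO. The groups did not overlap, and the log2 difference was 1.20 ± 0.12 in WT (2.30-fold, adjusted p = 3.92e-06), 1.38 in Flt3 KO and 1.32 in Flt3L KO. Aldoa, the main isoform of muscle and of most proliferating cells, ranged from 1079 to 1207 in cDC1 and 747 to 844 in cDC2 and differed by 0.60 ± 0.08 in WT (adjusted p = 3.50e-05). Tpi1, triose phosphate isomerase, gave 820.2 and 942 in WT, 851 and 837 in Flt3 KO and 902 and 813 in Flt3L KO cDC1. Values in cDC2 were 475 and 485 in WT, 473 and 501 in Flt3 KO and 595 and 575 in Flt3L KO. The cell types were apart on all arrays, by 0.87 ± 0.09 in WT (adjusted p = 3.41e-06), 0.79 in Flt3 KO and 0.55 in Flt3L KO, and both Flt3L KO cDC2 arrays were the highest of the cDC2 arrays.

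**Figure D2:**
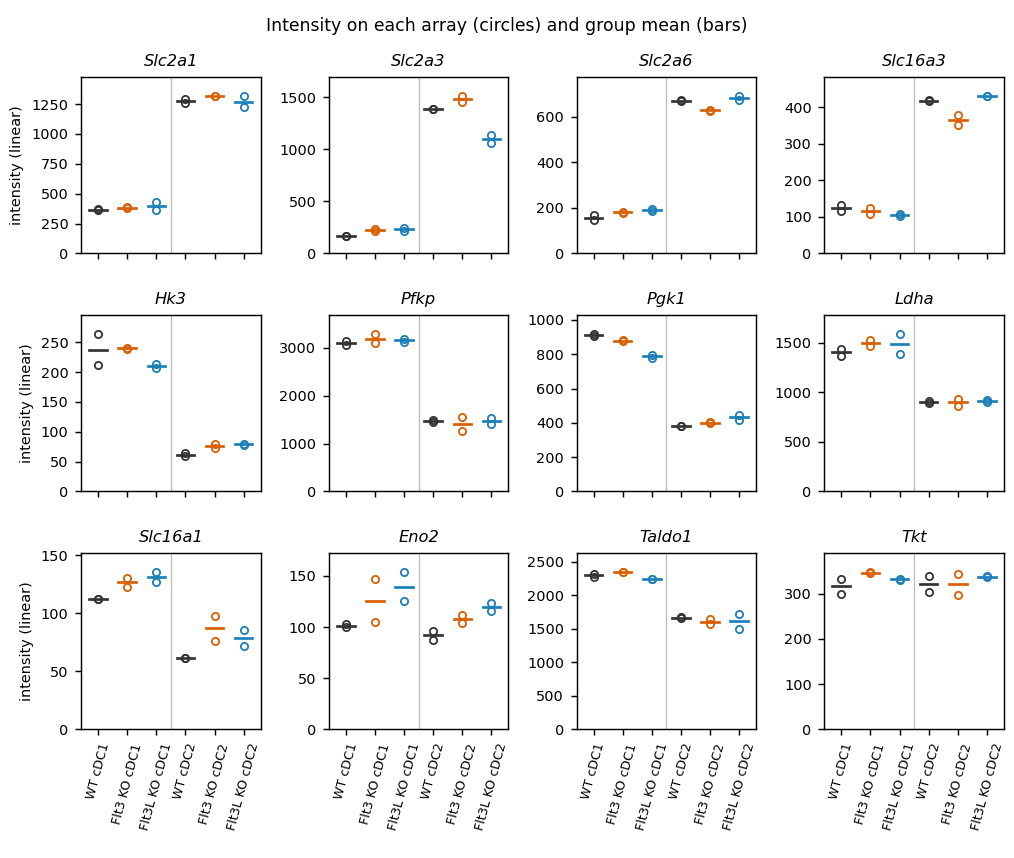
Intensity (linear scale, starting at 0) of 12 members on each of the 12 arrays: circles are arrays, 2 per group, and bars are group means; cDC1 groups are left and cDC2 groups right of the grey line. Slc2a3 lies at 168 to 247 in cDC1 and at 1058 to 1511 in cDC2, while the Tkt values of the cell types overlap.

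In the lower pathway, from 1,3-bisphosphoglycerate to pyruvate, Pgk1 and Pgam1 stood out. Pgk1, phosphoglycerate kinase, the first ATP-forming step, gave 905 and 918 in WT, 876 and 882 in Flt3 KO and 778 and 796 in Flt3L KO cDC1. In cDC2 the values were 379 and 380.3 in WT, 400.3 and 403 in Flt3 KO and 419 and 448 in Flt3L KO. Replicates were close in every group, and cDC1 was higher by 1.26 ± 0.07 in WT (2.40-fold, adjusted p = 1.37e-08), 1.13 in Flt3 KO and 0.86 in Flt3L KO on the log2 scale. Pgam1, phosphoglycerate mutase, gave 1604 and 1529 in WT, 1453 and 1518 in Flt3 KO and 1813 and 1785 in Flt3L KO cDC1. The cDC2 arrays gave 745 and 726 in WT, 806 and 772 in Flt3 KO and 855 and 795 in Flt3L KO. All of its cDC1 arrays were above all of its cDC2 arrays, with log2 differences of 1.09 ± 0.07 in WT (adjusted p = 9.87e-08), 0.91 in Flt3 KO and 1.13 in Flt3L KO. For both genes, a pair of their 3 probe sets held identical values, and signal from near-identical copies of these genes may not be separable on the array. Pkm, the pyruvate kinase of most tissues, ranged from 606 to 826 in cDC1 and 553 to 657 in cDC2. It was called higher in cDC1 in Flt3L KO alone (0.37 ± 0.09, adjusted p = 0.00472), beside 0.19 in WT and 0.17 in Flt3 KO. Whether that differs between genotypes was not called in the difference of Flt3L KO effects. With the probe set that lists RefSeq transcripts the Flt3L KO value was 0.19 (adjusted p = 0.0671). Eno2, the neuronal-type enolase, ranged from 99.7 to 154 in cDC1 and 87.7 to 123 in cDC2 and was called in no genotype.

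Lactate genes split by isoform; Ldha, outside the rule for single values, is shown because its promoter is printed, a choice made after its values were seen. Ldha, the lactate dehydrogenase subunit that favours lactate formation, gave 1366 and 1438 in WT, 1464 and 1525 in Flt3 KO and 1588 and 1386 in Flt3L KO cDC1. Its cDC2 values were 890.1 and 907 in WT, 935 and 865 in Flt3 KO and 921 and 898 in Flt3L KO. The cell types did not overlap, and cDC1 was higher by 0.64 ± 0.08 in WT (adjusted p = 4.19e-05), 0.73 in Flt3 KO and 0.71 in Flt3L KO. Ldhb, the subunit that favours lactate use, gave 31.0 and 39.8 in WT, 33.9 and 32.9 in Flt3 KO and 34.7 and 40.5 in Flt3L KO cDC1. Across cDC2 it gave 46.1 and 48.3 in WT, 43.5 and 45.9 in Flt3 KO and 50.8 and 47.7 in Flt3L KO. It was dim and its WT cDC1 replicates were far apart, with replicate 1 the lowest of all arrays. The log2 difference in WT was -0.43 ± 0.11 (adjusted p = 0.00824), and without WT cDC1 replicate 1 it was -0.25 and no longer called (adjusted p = 0.0905). It was also called lower in cDC1 in Flt3 KO (-0.42) and in Flt3L KO (-0.39), comparisons that use other arrays. A dimmer probe set of Ldhb gave log2 differences of -0.22 in WT, -0.61 in Flt3 KO and -0.37 in Flt3L KO.

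The monocarboxylate carriers went opposite ways. Slc16a3, which encodes MCT4, the low-affinity lactate exporter of glycolytic cells, gave 132 and 117 in WT, 124 and 108 in Flt3 KO and 108 and 102 in Flt3L KO cDC1. Values in cDC2 were 419 and 418 in WT, 351 and 378 in Flt3 KO and 431 and 430.5 in Flt3L KO. All cDC1 arrays were below all cDC2 arrays, with a difference of -1.75 ± 0.09 in WT (3.37-fold, adjusted p = 6.26e-09), -1.66 in Flt3 KO and -2.04 in Flt3L KO on the log2 scale. Slc16a1, which encodes MCT1, a carrier that moves lactate and pyruvate either way, gave 113 and 113 in WT, 122 and 131 in Flt3 KO and 127 and 136 in Flt3L KO cDC1. In cDC2 the values were 61.2 and 61.3 in WT, 75.9 and 98.1 in Flt3 KO and 72.3 and 85.4 in Flt3L KO. It was higher on every cDC1 array, by 0.88 ± 0.11 in WT (adjusted p = 3.96e-05), 0.55 in Flt3 KO and 0.74 in Flt3L KO.

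At the entry of pyruvate into mitochondria the differences were small. Pdk3, a kinase that inhibits pyruvate dehydrogenase, gave 246 and 299 in WT, 289.7 and 261 in Flt3 KO and 281 and 274 in Flt3L KO cDC1. The cDC2 arrays gave 399.6 and 392 in WT, 363 and 347 in Flt3 KO and 367 and 352 in Flt3L KO. Pdha1, the catalytic alpha subunit of that complex, gave 225 and 215 in WT, 231 and 243 in Flt3 KO and 232 and 240.3 in Flt3L KO cDC1. Its cDC2 values were 259 and 257 in WT, 283 and 277 in Flt3 KO and 289.6 and 292 in Flt3L KO. Both the inhibitor and its target were lower on every cDC1 array. The log2 difference of Pdk3 was -0.55 ± 0.09 in WT (adjusted p = 0.000474), -0.37 in Flt3 KO and -0.37 in Flt3L KO. For Pdha1 the log2 differences were -0.23 ± 0.07 in WT (adjusted p = 0.0201), -0.24 in Flt3 KO and -0.30 in Flt3L KO, and the WT call was lost without WT cDC1 replicate 2 or either WT cDC2 array (adjusted p = 0.0720, 0.0892 and 0.0767). Pdk1, another kinase of the family, ranged from 63.7 to 72.6 in cDC1 and 53.9 to 64.3 in cDC2. It was called higher in cDC1 in Flt3L KO alone (0.33 ± 0.10, adjusted p = 0.0186), beside 0.13 in WT and 0.21 in Flt3 KO. Whether that differs between genotypes was not called in the difference of Flt3L KO effects (limma, adjusted p = 0.522).

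Of 5 tested pentose phosphate genes, 4 were called higher in cDC1 on average over genotypes, where 28.1% of all tested genes were. Of these, Pgd, Pgls and Taldo1 were called higher in all 3 genotypes. Pgd, which makes NADPH in the oxidative branch, ranged from 590.5 to 657 in cDC1 and 431 to 522 in cDC2; Pgls, the lactonase before it, ranged from 159.7 to 183 in cDC1 and 106 to 140.3 in cDC2. Taldo1, the transaldolase of the non-oxidative branch, ranged from 2249 to 2351 in cDC1 and 1504 to 1720.0 in cDC2. None of the 3 overlapped between the cell types, and in WT their log2 differences were 0.37 ± 0.09 for Pgd (adjusted p = 0.00467), 0.68 ± 0.10 for Pgls (adjusted p = 0.000122) and 0.46 ± 0.08 for Taldo1 (adjusted p = 0.000381). Rpia, ribose 5-phosphate isomerase, ranged from 88.6 to 114 in cDC1 and 72.9 to 93.1 in cDC2. It was called higher in cDC1 in Flt3 KO (0.36, adjusted p = 0.0303) and in Flt3L KO (0.39, adjusted p = 0.0225), and had a like value in WT (0.31, adjusted p = 0.0546). Tkt, the transketolase that works beside Taldo1, ranged from 299.9 to 348 in cDC1 and 297 to 344 in cDC2 and differed by -0.02 ± 0.09 in WT, with a 95% interval from -0.22 to 0.17.

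**Figure D3:**
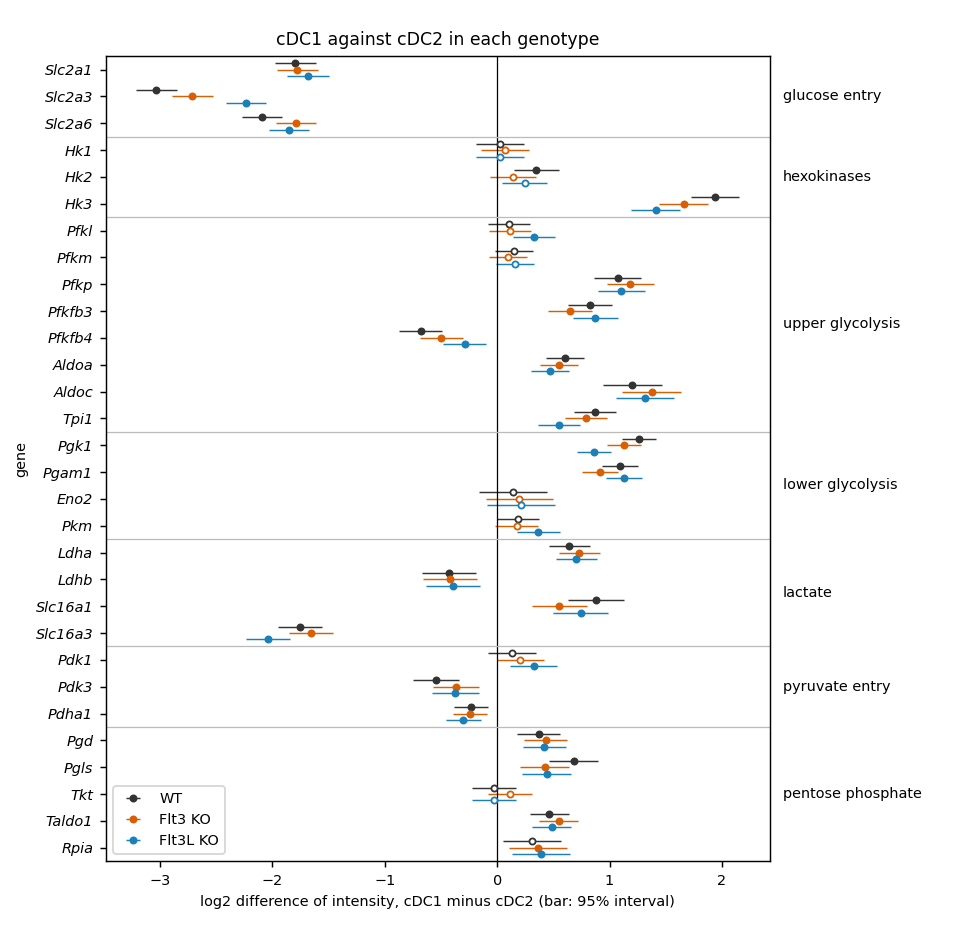
Log2 difference of intensity, cDC1 minus cDC2, of the 30 tested members in WT, Flt3 KO and Flt3L KO, with 95% intervals from limma (unadjusted); filled points are called at an adjusted p under 0.05. The 3 genotypes lie close together for most members, and for Slc2a3 they run from -3.03 in WT to -2.71 in Flt3 KO and -2.24 in Flt3L KO.

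Loss of the receptor changed no member by the test. In cDC1, Flt3 KO against WT called 0 of 30 members (limma), where 0.0803% of all tested genes were called. An unadjusted p under 0.05 was found for 3 members, beside 1873 of all 14953 tested genes. These members were Slc2a3 (0.42 ± 0.08, adjusted p = 0.118), Slc2a6 (0.20 ± 0.08, adjusted p = 0.362) and Pfkfb3 (0.21 ± 0.09, adjusted p = 0.383). In cDC2 Flt3 KO against WT called 0 of 30 members (limma), against 0.107% of all genes. There 4 members had an unadjusted p under 0.05, beside 1089 of all 14953 tested genes. They were led by Slc16a1 (0.49 ± 0.11, adjusted p = 0.203), Pfkfb3 (0.39 ± 0.09, adjusted p = 0.217) and Hk3 (0.30 ± 0.10, adjusted p = 0.466). Averaged over cell types, Flt3 KO against WT called 0 of 30 members (limma), against 0.254% of all genes. At an unadjusted p under 0.05 there were 7 members, beside 1521 of all 14953 tested genes. They were led by Pfkfb3 (0.30 ± 0.06, adjusted p = 0.111), Slc2a3 (0.26 ± 0.06, adjusted p = 0.130) and Slc16a1 (0.33 ± 0.08, adjusted p = 0.159). The 95% intervals of all 30 members stayed within 1 log2 unit of 0 in both cell types, and those of 28 in cDC1 and 26 in cDC2 within 0.5. These arrays can therefore bound a change of most members, but a p that misses the threshold does not show equal levels.

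Flt3L KO against WT called Slc2a3 in cDC1. Its rise there, 0.46 ± 0.08 log2 units, was near the 0.42 ± 0.08 of Flt3 KO, which was not called. In Flt3L KO cDC1, 1 of 30 members was called against WT, beside 1.19% of all genes. An unadjusted p under 0.05 was found for 10 members, beside 2558 of all 14953 tested genes. With the intensities given above, 220.0 and 247 on the Flt3L KO cDC1 arrays against 168 and 170.2 on the WT arrays, Slc2a3 was 1.38-fold higher (log2 0.46 ± 0.08, adjusted p = 0.0254), and the groups did not overlap. The call was lost without WT cDC1 replicate 1 (adjusted p = 0.0695), without either Flt3L KO cDC1 array (0.0760 and 0.148) and with only the 4 arrays compared (0.243). The next members by p were Pkm (0.31 ± 0.09, adjusted p = 0.101) and Pfkfb4 (0.31 ± 0.09, adjusted p = 0.108). The Hk1 probe set that lists RefSeq transcripts gave 0.44 ± 0.09 (adjusted p = 0.0423), from 81.4 and 92.7 on the WT cDC1 arrays to 113 and 122 on the Flt3L KO cDC1 arrays.

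In cDC2 no member was called in Flt3L KO against WT (limma), where 1.95% of all genes were called. An unadjusted p under 0.05 was found for 8 members, beside 2185 of all 14953 tested genes. Slc2a3 was first by p but not called: its values of 1058 and 1137 on the Flt3L KO cDC2 arrays were below 1388 and 1385 on the WT arrays, a log2 difference of -0.34 ± 0.08 (adjusted p = 0.0624). Hk3 (0.36 ± 0.10, adjusted p = 0.1005) and Tpi1 (0.28 ± 0.09, adjusted p = 0.133) had the next smallest p. Averaged over cell types, 1 member was called in Flt3L KO, beside 3% of all genes. This was Eno2, which gave 102 and 99.7 in WT, 104 and 147 in Flt3 KO and 125 and 154 in Flt3L KO cDC1. Across cDC2 it gave 95.7 and 87.7 in WT, 104 and 112 in Flt3 KO and 123 and 116 in Flt3L KO. All 4 Flt3L KO arrays were above all 4 WT arrays, and the log2 difference was 0.42 ± 0.10 (adjusted p = 0.0406). That call was lost in 7 of the 8 fits without one array (adjusted p up to 0.152) and without the filter on dim genes (0.0537). The 95% intervals of all 30 members stayed within 1 log2 unit of 0 in both cell types.

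**Figure D4:**
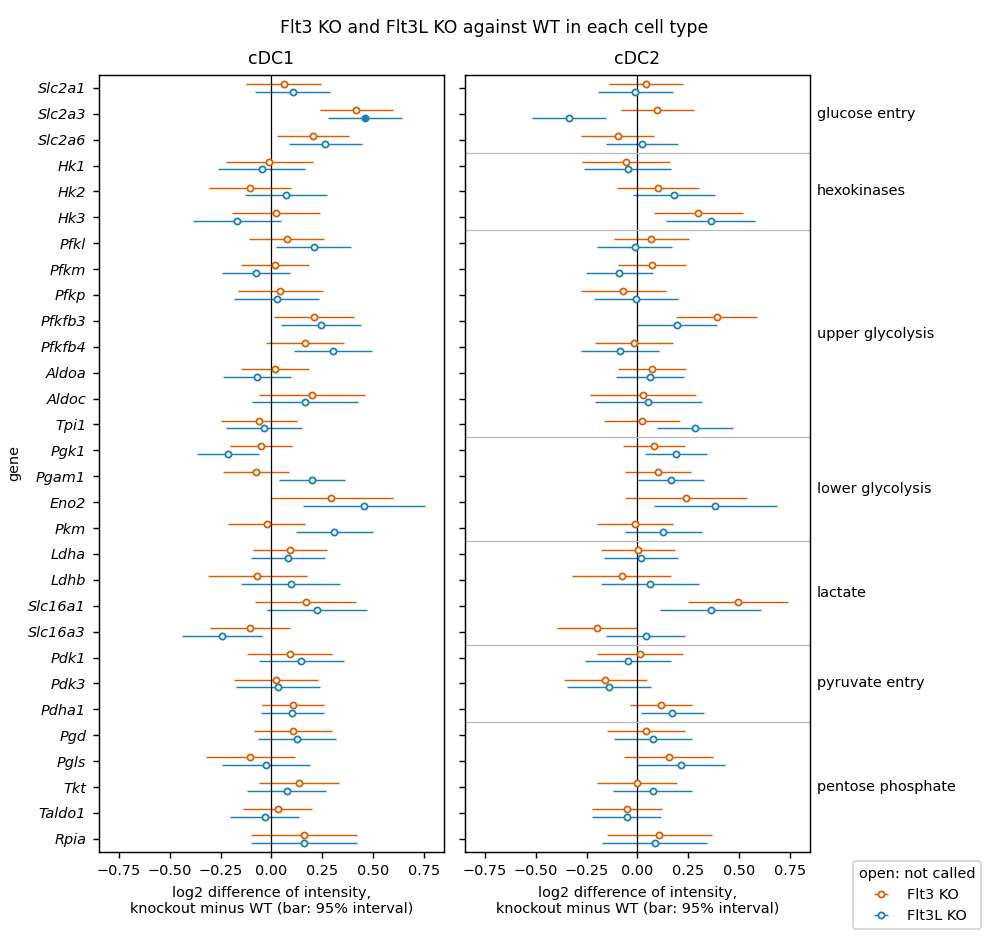
Log2 difference of intensity, knockout minus WT, of the 30 tested members in cDC1 (left) and cDC2 (right), with 95% intervals from limma (unadjusted); filled points are called at an adjusted p under 0.05. Slc2a3 in Flt3L KO cDC1, at 0.46, is the called member, and in Flt3L KO cDC2 it lies on the other side of 0, at -0.34.

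The knockouts were also set against each other. In cDC1, Flt3L KO against Flt3 KO called 0 of 30 members (background 0.883%). Slc2a3, Slc2a1 and Slc2a6 differed by 0.04 to 0.06 log2 units there (limma, adjusted p of 0.773 or more). At an unadjusted p under 0.05 there were 3 members, beside 2363 of all 14953 tested genes. These were Pkm (0.33 ± 0.09, adjusted p = 0.0942), Pgam1 (0.28 ± 0.07, adjusted p = 0.103) and Pgk1 (-0.16 ± 0.07, adjusted p = 0.295). In cDC2 it called 1 of 30 (background 0.93%), Slc2a3, at 1058 and 1137 in Flt3L KO against 1457 and 1511 in Flt3 KO, with a log2 difference of -0.44 ± 0.08 (adjusted p = 0.0324). The groups did not overlap, but the call was lost when any 1 of the 4 arrays was left out (adjusted p from 0.0580 to 0.242) and after quantile normalization (0.0510). The comparisons with WT share the WT arrays, and those of Flt3L KO share the Flt3L KO arrays, so the Slc2a3 values above are not independent of each other.

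A direct test asked whether a knockout's effect differed between the cell types. For Flt3L KO, 1 of 30 members was called, beside 0.495% of all genes: the effect on Slc2a3 in cDC2 minus that in cDC1 was -0.80 ± 0.12 log2 units (adjusted p = 0.0115), that is, a rise in cDC1 and a lower value in cDC2. It was not called without WT cDC2 replicate 1, WT cDC2 replicate 2 or Flt3L KO cDC2 replicate 1 (adjusted p = 0.0650, 0.0589 and 0.0551). The next members by p, Pgk1 and Hk3, were not called, with values of 0.40 ± 0.10 (adjusted p = 0.104) and 0.53 ± 0.14 (adjusted p = 0.132). For Flt3 KO, 0 of 30 members were called, as were 0% of all genes. An unadjusted p under 0.05 was found for 2 members, beside 1342 of all 14953 tested genes. These were Slc2a3 (-0.32 ± 0.12) and Slc2a6 (-0.30 ± 0.12), followed by Slc16a1 (0.33 ± 0.16, adjusted p = 0.565).

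Markers of other cells moved with the Flt3L KO cDC2 values. Of 6 tested macrophage markers, 4 rose in Flt3L KO cDC2 (Vcam1, C1qa, C1qb and Mertk) and 1, Adgre1, fell; C1qa rose 4.60-fold. The summed intensity of the 7 macrophage markers with a value was 1496 to 1526 in WT cDC2, 1681 to 1733 in Flt3 KO cDC2 and 2174 to 2433 in Flt3L KO cDC2, while Cd5l was among the dimmest genes. The cDC2 markers Cd209a and Clec4a4 fell there and the cDC1 markers Irf8 and Cadm1 rose, each of 8 tested. Of 6 tested monocyte markers, Treml4 alone was called, and it rose. In WT, Treml4 was far brighter in cDC1 than in cDC2, with mean intensities of 2034 and 378. In Flt3L KO cDC1 no macrophage or monocyte marker was called, and the macrophage sum was 507 to 521 against 481 to 485 in WT. There the cDC1 marker Tlr3, of 8 tested, fell (-0.69 ± 0.14, limma, adjusted p = 0.0455) and the NK cell marker Klrk1, of 2 tested, rose (0.49 ± 0.11, adjusted p = 0.0494). Prf1, the other tested NK cell marker, had means of 73.8 in WT cDC1 and 75.3 in Flt3L KO cDC1. The NK cell markers Ncr1, Klrb1c and Gzma were too dim to be tested. In Flt3 KO, C1qa and Vcam1 rose in cDC2 and the cDC2 marker Cd209a rose in cDC1. In WT, 4 of the 6 macrophage markers were lower and 1 higher in cDC1 than in cDC2. The part of these markers in the Slc2a3 values, and in the other members' differences between the cell types, was not tested.

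Other genes of the pathway were taken from lists that held none of the members. Of 37 tested genes of glucose and pyruvate metabolism outside the members, 8 were higher and 6 lower in WT cDC1 than in WT cDC2, with a median log2 difference of 0.09, beside 39.4% called and a median of 0.07 over all tested genes. Slc16a7, which encodes the pyruvate carrier MCT2, was lower (log2 difference -1.87 ± 0.13), as was Eno3, the muscle enolase (-0.92 ± 0.09), whereas Bpgm, which makes 2,3-bisphosphoglycerate, was higher by 0.63 ± 0.12. Of 14 tested genes of the pentose phosphate pathway and NADPH supply, 3 were higher and 4 lower (median 0.06). Idh1, the cytosolic NADPH-forming isocitrate dehydrogenase, was higher by 1.35 ± 0.12 and Nadk2, the mitochondrial NAD kinase, by 1.16 ± 0.10, while the NADPH-using thioredoxin reductase Txnrd1 was lower (-1.18 ± 0.08) as was the glutathione reductase Gsr (-0.50 ± 0.09). Of 16 tested TCA cycle genes, 9 were higher, such as the succinyl-CoA ligase subunit Suclg1 (0.83), and 3 lower, such as the malate dehydrogenase Mdh2 (-1.20), with a median of 0.24.

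Regulators of glycolysis were counted in the same way. Of 29 tested, 10 were lower and 6 higher in WT cDC1 than in WT cDC2, with a median log2 difference of 0.05; over all tested genes 39.4% were called, 21% higher and 18.4% lower, and the shares in these lists were 55.2% of the regulators, 33.3% of the hypoxia-inducible genes, 47.8% of the immediate early and heat shock genes and 15.8% of the cell cycle genes. Among those lower were Txnip, a brake on glucose uptake (log2 -1.76 ± 0.14), Myc, an activator of glycolytic genes (-1.18 ± 0.11), the AMPK-activating kinase Stk11 (-0.76 ± 0.08) and Irf4, a factor that also serves as a cDC2 marker (-3.31 ± 0.12), and among those higher was Keap1, the inhibitor of Nrf2 (0.83 ± 0.09); Keap1 here and Bpgm above were chosen after their values were seen. Hif1a, the oxygen-sensing factor, was not called in WT. Of 15 tested hypoxia-inducible genes outside metabolism, 4 were lower (Vegfa, -3.60 ± 0.08, Ndrg1, -1.02 ± 0.10, with Adm and Ankrd37) and 1 was higher (Mif, 0.51 ± 0.08), with a median of -0.06. Of 23 immediate early and heat shock genes, 5 were higher and 6 lower (median -0.04), and of 19 cell cycle genes 3 were higher and 0 lower in cDC1 (median 0.26).

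Few of these other genes were called in a knockout against WT. Nnt, the mitochondrial transhydrogenase that makes NADPH, was higher in all 4 comparisons with WT. On the log2 scale it was higher by 1.57 ± 0.09 in Flt3 KO cDC1 and 1.39 ± 0.09 in Flt3 KO cDC2. In Flt3L KO it was higher by 1.47 ± 0.09 in cDC1 and 1.22 ± 0.09 in cDC2. The labels give no strain, so the part of mouse background in this or any other difference from WT was not tested. Gsr rose in Flt3L KO cDC2 by 0.62 ± 0.09 (limma, adjusted p = 0.00479), in the group where 4 of 6 tested macrophage markers rose and 1 fell. Ndrg1, a hypoxia-inducible gene, rose in Flt3L KO cDC1 by 0.83 ± 0.10 (adjusted p = 0.00215), and Rptor, the mTORC1 scaffold, by 0.36 ± 0.08 (adjusted p = 0.0490). None of the 37 other glucose and pyruvate genes, 16 TCA cycle genes or 19 cell cycle genes was called in a knockout against WT within a cell type (limma). At an unadjusted p under 0.05 there were at most 4, 4 and 7 of them in any such comparison, beside 1089 to 2558 of all 14953 tested genes. All 19 cell cycle genes had a positive log2 difference in Flt3L KO cDC2, with a median of 0.28 beside 0.02 over all tested genes. This was the comparison with 7 at an unadjusted p under 0.05 (limma). It was also the group in which 4 of 6 tested macrophage markers rose and 1 fell. Immediate early and heat shock genes, which respond to stimulation and stress, had calls, all lower. Of 23 tested, 1 fell in Flt3 KO cDC1 (Hsph1, -0.74 ± 0.12), 0 in Flt3 KO cDC2 (limma, 4 at an unadjusted p under 0.05), 2 in Flt3L KO cDC1 (Ier3, -0.67 ± 0.10, and Btg2, -0.39 ± 0.08) and 3 in Flt3L KO cDC2 (Egr3, -0.59 ± 0.08, Btg2, -0.53 ± 0.08, and Egr2, -0.42 ± 0.10). These are 4.35%, 0%, 8.70% and 13.0% of the list, beside 0.0803%, 0.107%, 1.19% and 1.95% of all genes, and their part in the members' values was not tested.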

How the data were processed

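RNA of 12 samples was amplified with the Ambion WT Expression kit, labelled with biotin and hybridised to GeneChip arrays, per the labels' protocols. The deposited table gives an intensity for each probe set on each array, on a linear scale; the sources here do not give its summarisation or normalization, and it was not normalized again. The log2 values were computed from the deposited intensities with no pseudocount. Array medians were 59.0 to 63.0, and 2 arrays a group limit the precision. Detection calls were not used here.

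Of 30177 probe sets, 21789 carried 1 gene symbol in GEO's platform annotation, 1621 several and 6767 none or no entry. The probe set of the highest mean was kept per gene, and the dimmest share of 0.25 of 19938 genes was dropped. Groups came from the genotype and cell type labels. In limma 3.58.1 (R 4.3.3), each of the 6 groups had a mean, leaving 6 residual degrees of freedom. Benjamini-Hochberg adjustment ran over 14953 genes within each of 14 comparisons, with calls at an adjusted p under 0.05. Intervals are 95% and unadjusted. The method was tested on simulated data. The members, the lists of other genes and the tests were chosen with earlier results of these data known.

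By rule, values are given for members called in a knockout comparison, for the 8 largest differences in each direction between WT cDC1 and WT cDC2 and, as log2 differences, for the 3 members with the smallest p where none was called; other members are given by range, apart from Ldha. The alternatives tried were: quantile normalization; keeping all dim genes; dropping a share of 0.5; a trended, robust variance prior; averaging the probe sets of a gene; fitting just the compared arrays; a replicate block; leaving out single arrays; and, added after the data were seen, probe sets that list a RefSeq transcript. Promoter windows were searched for ACGTG and GCGTG on both strands.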

Additional observations from a re-analysis of the deposited data

Results flagged for a closer look

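Slc2a3, the glucose carrier GLUT3, was singled out because the effect of Flt3L KO differed between the cell types by a test of the difference itself: the effect in cDC2 minus that in cDC1 was -0.80 ± 0.12 on the log2 scale (limma, adjusted p = 0.0115). The values were 168 and 170.2 on the WT cDC1 arrays and 220.0 and 247 on the Flt3L KO cDC1 arrays, against 1388 and 1385 on the WT cDC2 arrays and 1058 and 1137 on the Flt3L KO cDC2 arrays. Both Flt3L KO arrays were above both WT arrays in cDC1 and below both in cDC2. The call was lost without WT cDC2 replicate 1, WT cDC2 replicate 2 or Flt3L KO cDC2 replicate 1 (adjusted p = 0.0650, 0.0589 and 0.0551). In the Flt3L KO cDC2 arrays 4 of 6 tested macrophage markers also rose and 1, Adgre1, fell. The cDC2 markers Cd209a and Clec4a4 fell there, and the other 6 of 8 were not called. The part of these markers in this difference was not tested.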

How the results depend on the processing

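Between cDC1 and cDC2, member counts stayed within 1.5 times of the values given under every alternative run: 21 to 23 in WT, 20 to 23 in Flt3 KO, 23 to 26 in Flt3L KO and 23 to 28 averaged. Knockout counts moved more, for causes that were not tested. With a trended and robust prior, 1 member was called in Flt3 KO cDC1 and 2 averaged over cell types, 2 each in Flt3L KO cDC1, Flt3L KO cDC2, Flt3L KO against Flt3 KO in cDC1 and the difference of Flt3L KO effects, and 4 in Flt3L KO averaged. In Flt3L KO averaged over cell types, 0 were called without the filter, 3 with a share of 0.5 dim genes left out, 2 with the mean of probe sets and 2 with RefSeq probe sets (added after the data were seen); in Flt3L KO cDC1 the last gave 2 and only the arrays compared 0. With that share left out 1 was called in Flt3L KO cDC2, and quantile normalization left 0 in Flt3L KO against Flt3 KO in cDC2.

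Leaving out 1 array at a time gave 19 to 22 members in WT, 19 to 21 in Flt3 KO, 19 to 23 in Flt3L KO and 26 to 28 averaged between the cell types. It gave 0 to 1 in Flt3 KO cDC1 (1 without WT cDC1 replicate 2), Flt3L KO cDC1 and Flt3L KO averaged, 0 to 2 for the difference of Flt3L KO effects (2 without WT cDC1 replicate 1), and 0 in the other knockout comparisons, Flt3L KO against Flt3 KO in cDC2 included; a lone array was assumed to vary like the other groups. Of the values of single members under alternatives, 451 kept direction and call, 26 lost and 9 gained the call, and 0 reversed. These totals pool large differences between the cell types and members that were never called with the knockout calls. Every knockout call of a member was lost in several of these fits. Deviations of arrays with equal replicate numbers had correlations of -0.20 to 0.17 over 15 pairs of groups, 3 over 0.1. Between cDC1 and cDC2 of the same genotype they were 0.16 in WT, 0.09 in Flt3 KO and 0.15 in Flt3L KO. The fit with the replicate block gave 22, 22, 25 and 27 members between the cell types, 1 in Flt3L KO cDC1 and 0 in Flt3 KO cDC1. That block is a single effect shared by all genotypes, so pairing within a genotype was not tested. Of the members with a value, Fbp1 was too dim to be tested.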
